A study of Homo sapiens with 6 samples.

Results

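The amyloid precursor protein (APP) family and the proteases that cut it were followed through 9 genes, chosen by symbol from the deposited table of 18056 genes. They are the family members APP, APLP1 and APLP2, the β-secretases BACE1 and BACE2, the α-secretase ADAM10, and the γ-secretase subunits PSEN2, NCSTN and PSENEN. All 9 passed the filter on low counts. The libraries came from forebrain organoids, small cultured tissues patterned toward the dorsal forebrain and grown from the wild-type induced pluripotent stem cell line DYR0100. There were 6 libraries in 1 batch, 3 of vehicle-treated organoids and 3 of organoids exposed for 6 days to 5 µM Aβ42. The study's design text calls the 3 replicates of each condition independent. All libraries come from 1 line and from polyadenylated RNA of whole organoids, so fewer cells of a type and less RNA per cell cannot be told apart.

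APP is a membrane protein abundant in neurons, and it can be cut along competing routes. ADAM10 cuts inside the amyloid-β segment, which prevents the peptide from forming, whereas BACE1 cuts at the start of that segment. The γ-secretase complex, built from a catalytic presenilin, nicastrin (NCSTN), PEN-2 (PSENEN) and an APH-1 subunit, then cuts the remaining stub within the membrane. Aβ42, the peptide added here, is the longer and more aggregation-prone product of the BACE1 route. APLP1 and APLP2 are cut by some of the same proteases but contain no amyloid-β segment. The comparison asks whether organoids exposed to the peptide carried different levels of the transcripts that make and process its precursor.

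The stretch of APP that encodes the added peptide is shown because the BACE1 and γ-secretase cuts delimit it and the ADAM10 cut falls inside it. It was read from transcript APP-201 of GENCODE release 29 (GRCh38), whose coding sequence has 770 codons. It spans 126 bases on the minus strand of chromosome 21, 51 in exon 16 of 18 (chr21:25897573-25897623) and 75 in exon 17 (chr21:25891794-25891868). Capitals mark the 16 codons between the BACE1 and the ADAM10 cut. The 26 codons in lower case run from the ADAM10 cut to the γ-secretase cut that releases Aβ42.
APP: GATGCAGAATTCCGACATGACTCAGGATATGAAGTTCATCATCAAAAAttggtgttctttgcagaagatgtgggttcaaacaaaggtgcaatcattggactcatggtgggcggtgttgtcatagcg

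All 3 family members share the end of their cytoplasmic tail, where adaptor proteins of the APBA, APBB and DAB families dock. The 12 codons around it are shown with the 4 codons of the NPXY motif in capitals.
APP: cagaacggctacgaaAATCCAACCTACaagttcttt
APLP1: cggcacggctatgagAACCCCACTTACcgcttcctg
APLP2: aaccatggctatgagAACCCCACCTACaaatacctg
Over these 36 bases APP shared 24 with APLP1 and 24 with APLP2, and APLP1 shared 27 with APLP2. The longest identical run between whole coding sequences was 11 bases for APP and APLP1, and 17 bases for APP and APLP2, for APLP1 and APLP2, and for BACE1 and BACE2.

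Libraries are compared by CPM, the counts scaled to a common library total with TMM factors. Total estimated counts lay between 16465390 and 16742958 per library. Aβ42 replicate 2 stood apart, with a limma quality weight of 0.395 where the largest was 1.63 and the other libraries were all above 1. Of all pairs of libraries, it and vehicle replicate 1 differed least in their counts (chi-square per gene 3.16), while it differed from Aβ42 replicates 1 and 3 by 9.40 and 8.49. TPM is a share of all transcripts in a library, scaled for transcript length, and allows levels to be compared between genes. Summed TPM of 10 neuronal markers was 5396 to 5663 in vehicle and 5033 to 5190 with Aβ42, of 6 intermediate progenitor markers 296.8 to 335.5 and 209.5 to 248.4, and of 8 proliferation markers 420.5 to 500.1 and 266.1 to 379.5. Radial glia markers (10 genes) summed to 8472 to 8863 and 8697 to 9032 TPM, excitatory cortical neuron markers (8) to 1447 to 1508 and 1366 to 1441, and astrocyte markers (6, with AQP4 under 1 TPM) to 187.8 to 212.4 and 162.5 to 188.6. Most of the radial glia sum was FABP7 (4888 to 5661 TPM) and VIM (1596 to 1905 TPM). Of those 10 genes, 6 had positive and 4 negative log2 fold changes. At an unadjusted p-value under 0.05 (edgeR) 1 was higher and 3 lower, against 12.4% and 11.5% of all tested genes. Most of the astrocyte sum was SLC1A2 (121.9 to 133.7 TPM over the libraries). Of the 6 astrocyte markers, 2 had positive and 4 negative log2 fold changes. All 9 microglia markers were under 1 TPM, with C1QA, C1QB, C1QC and TYROBP at 0 counts in every library. Mesenchymal and endothelial markers (8) summed to 13.2 to 31.6 and 7.55 to 13.5 TPM (6 of the 8 under 1 TPM), and pluripotency markers (5) to at most 3.84 TPM. The part of these shifts in the results was not tested.

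In the organoids APP was the most abundant of the 9 transcripts per unit length. Mean TPM over the 6 libraries was 943.8 for APP, 369.7 for APLP2 and 267.4 for APLP1, and APP ranked 121 of 18056 genes. ADAM10 (97.3 TPM) stood above BACE1 (83.4 TPM), and their ranges over the libraries, 94.2 to 99.3 and 77.7 to 88.2 TPM, did not overlap. NCSTN followed at 60.7 TPM, PSENEN at 28.4 TPM, PSEN2 at 12.8 TPM and BACE2 at 7.01 TPM. Neighbours in this order did not overlap over the libraries except PSEN2 (9.56 to 15.19 TPM) and BACE2 (5.43 to 10.47 TPM). In Aβ42 replicate 1 alone BACE2 (10.47 TPM) exceeded PSEN2 (9.56 TPM). The remaining γ-secretase subunits APH1A and APH1B averaged 101.4 and 26.9 TPM.

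By normalised counts over all 6 libraries, the fitted differences between Aβ42 and vehicle ran from 18.7% lower (PSEN2) to 14.02% higher (BACE2), and none of the 9 passed an adjusted p-value of 0.05. On the length-scaled TPM values BACE2 differed by more, as given with that gene. APP, APLP2, ADAM10 and BACE2 had positive and APLP1, BACE1, PSEN2, NCSTN and PSENEN negative log2 fold changes of Aβ42 over vehicle. The test was edgeR's quasi-likelihood test with Benjamini-Hochberg adjustment over 13842 genes, of which 0% passed. PSEN2 was the 1 member with an unadjusted p-value under 0.05, a mark reached by 23.9% of all tested genes. DESeq2 gave 0 members adjusted and 0 unadjusted, while it passed 6.56% of the genes it tested and gave 2519 genes an unadjusted p-value under 0.05. An unadjusted p-value under 0.05 was reached by 3 members in limma with quality weights, and by 4830 of all 13842 tested genes. In limma on log2(TPM + 1) or log2(TPM + 0.1) values it was reached by 4 members, and by 3284 and 3270 of the 13842 genes. None of these members passed after adjustment. With the replicate number as a block, 14.2% of all genes passed and still no member. The design text names no pairs, so the block is an alternative fit only. Without Aβ42 replicate 2, 23.1% of all genes and 2 members, APP and PSEN2, passed.

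**Figure D1:**
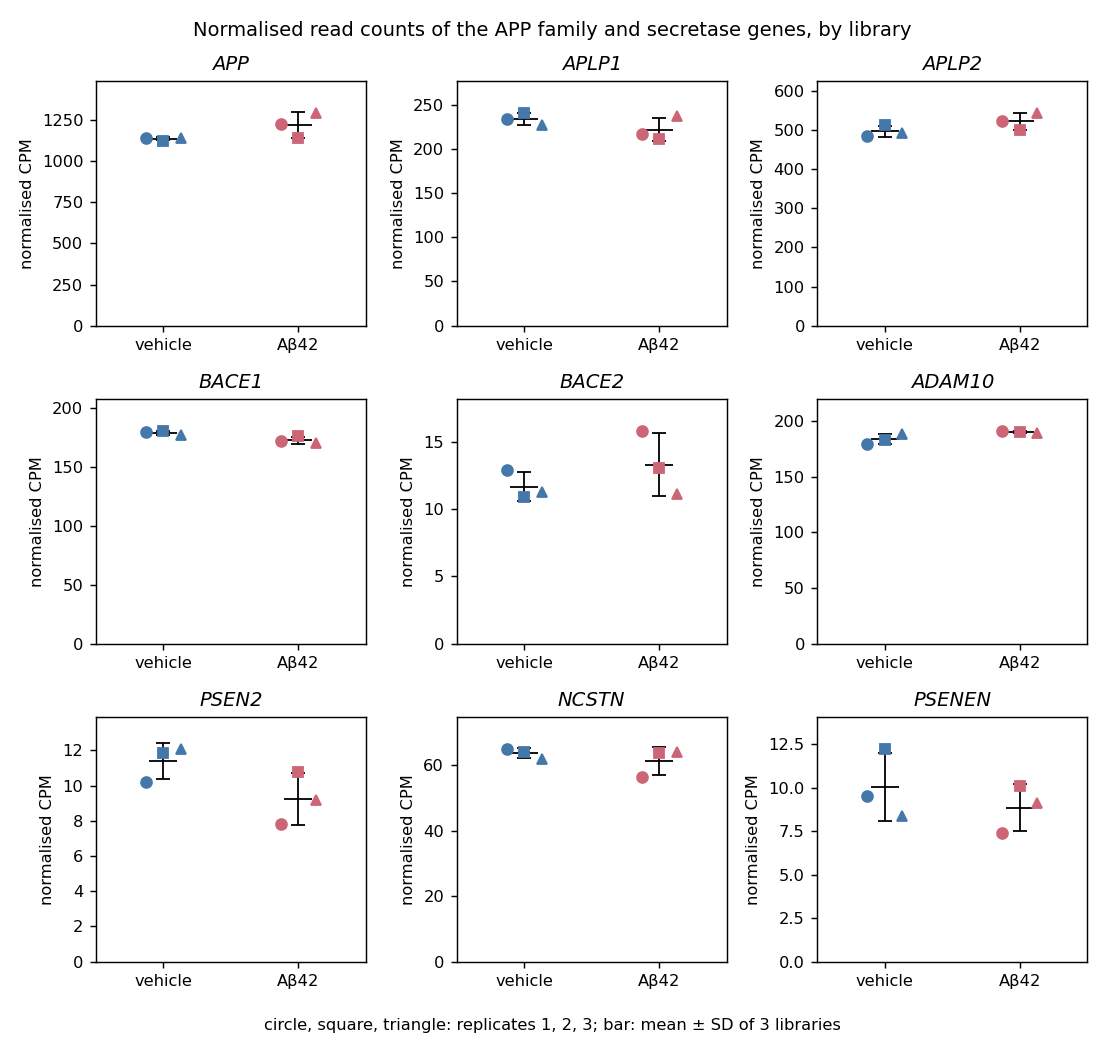
Normalised counts (CPM, vertical axis, from 0) of the 9 genes in each of 3 vehicle and 3 Aβ42 libraries, with mean ± SD as bars. The groups overlap in 7 panels; the Aβ42 points lie below vehicle for BACE1 and above it for ADAM10.

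APP (Entrez gene ID 351; chr21:25880550-26171128, GRCh38.p14, RefSeq) is the source of amyloid-β. It was at 1145, 1126.5 and 1141 CPM in vehicle replicates 1 to 3 and at 1226, 1140.5 and 1295 CPM in Aβ42 replicates 1 to 3. The vehicle libraries were close together, Aβ42 replicates 1 and 3 lay above them and Aβ42 replicate 2 lay among them. The log2 fold change was 0.10 ± 0.05 (SE, n = 3 each; adjusted p-value 0.263, edgeR), or 7.34% higher with a 95% interval of -0.995% to 16.4%. Aβ42 replicate 2 was close to the vehicle mean of 1137 CPM. In TPM it was at 916.0, below every vehicle library (919.5 to 922.6). Leaving out 1 library moved the log2 fold change from 0.06 (without Aβ42 replicate 3) to 0.15 (without Aβ42 replicate 2, adjusted p-value 0.0343). With the replicate block the adjusted p-value was 0.193.

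APLP2 (gene ID 334; chr11:130069894-130144805), the widely expressed relative, was like APP highest in Aβ42 replicate 3 and next highest in Aβ42 replicate 1. Among the vehicle libraries the 2 genes differed, as replicate 2 was the highest for APLP2 and the lowest for APP. APLP2 was at 485.9, 513.5 and 492.9 CPM in vehicle and 524.1, 500.9 and 544.5 CPM with Aβ42, where Aβ42 replicate 2 again lay inside the vehicle range. Its log2 fold change was 0.07 ± 0.05 (adjusted p-value 0.382), with a 95% interval of -2.39% to 13.3%. On the log2(TPM + 1) scale it was 0.02. The median over all genes on that scale was -0.040, against 0.0032 for the counts.

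APLP1 (gene ID 333; chr19:35868574-35879792), the family member restricted mainly to neurons, had a negative value. It was at 234.4, 241.0 and 227.8 CPM in vehicle and 217.4, 211.8 and 237.3 CPM with Aβ42. Aβ42 replicates 1 and 2 lay below every vehicle library, while Aβ42 replicate 3 lay among them. The log2 fold change was -0.08 ± 0.05 (adjusted p-value 0.393; 95% interval -12.6% to 2.79%), and it ran from -0.13 without Aβ42 replicate 3 to -0.04 without Aβ42 replicate 2. In TPM the groups did not overlap, at 271.8 to 290.3 in vehicle and 246.9 to 268.5 with Aβ42. Of the 10 neuronal markers, whose summed TPM was lower in the Aβ42 libraries, 6 had negative and 4 positive log2 fold changes (median -0.04), and their part in the APLP1 values was not tested. Exons of APLP1 overlap NPHS1 on the opposite strand in GENCODE, and whether the authors' counting used strand is not given in the sources used here.

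Because the family members took different signs, the mix of the family was compared within each library, where depth cancels out. The ratio of APP to APLP1 in TPM was 3.35, 3.17 and 3.38 in the vehicle libraries and 3.86, 3.71 and 3.77 in the Aβ42 libraries. The ratio of APLP2 to APLP1 was 1.28, 1.32 and 1.34 for vehicle replicates 1 to 3 and 1.49, 1.47 and 1.42 for Aβ42 replicates 1 to 3. Both ratios were higher in all 3 Aβ42 libraries, replicate 2 included. The ratio of APP to APLP2 overlapped (2.40 to 2.61 in vehicle, 2.53 to 2.66 with Aβ42). APLP1 made up 17.5% to 18.2% of the family's summed TPM in vehicle and 15.7% to 16.2% with Aβ42.

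**Figure D2:**
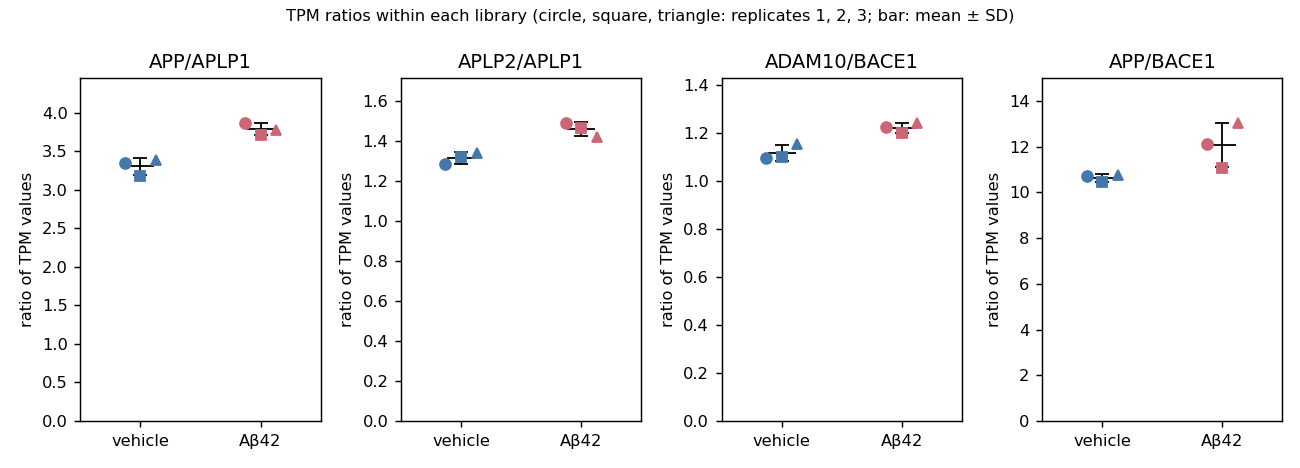
Ratios of TPM values (vertical axes, from 0) within each of 3 vehicle and 3 Aβ42 libraries, with mean ± SD as bars. In all 4 ratios shown, chosen after their values were seen, the Aβ42 points lie above the vehicle points, as for APP to APLP1 at 3.71 to 3.86 against 3.17 to 3.38.

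The ratio of ADAM10 to BACE1, the enzymes that compete for APP, was 1.10, 1.10 and 1.16 in the vehicle libraries and 1.23, 1.20 and 1.24 in the Aβ42 libraries. APP to BACE1 was 10.4 to 10.8 in vehicle and 11.1 to 13.03 with Aβ42. Of the 36 ratios that the 9 genes allow, 13 did not overlap between groups, 8 of them involving BACE2. Over all pairs of the tested genes 24.8% of ratios did not overlap, and an exact permutation test of 3 libraries against 3 cannot go below 0.1. The ratios are therefore given as a description.

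BACE1 (gene ID 23621; chr11:117285698-117316256), the enzyme that starts amyloid-β production in neurons, varied little. It was at 179.6, 180.3 and 177.0 CPM in vehicle and 171.5, 175.9 and 169.9 CPM with Aβ42. Every Aβ42 library lay below every vehicle library, and the log2 fold change was -0.05 ± 0.04 (adjusted p-value 0.459; 95% interval -9.81% to 2.88%). ADAM10 (gene ID 102; chr15:58588809-58749707), the main neuronal α-secretase, was at 179.3, 183.3 and 188.2 CPM in vehicle and 191.2, 190.6 and 189.6 CPM with Aβ42. Every Aβ42 library lay above every vehicle library, with a log2 fold change of 0.05 ± 0.04 (adjusted p-value 0.473; 95% interval -2.93% to 10.9%). These were the 2 members whose CPM did not overlap between groups, a pattern shown by 27% of all tested genes. In TPM the ADAM10 values overlapped, at 94.2 to 98.8 in vehicle and 96.4 to 99.3 with Aβ42.

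The log2 fold change of BACE1 was -0.11 on the log2(TPM + 1) scale (adjusted p-value 0.195, limma), where the median over all genes was -0.040. Its estimated counts were not whole in every library, and its exons overlap BACE1-AS and RNF214 on the opposite strand, so its level carries that uncertainty. Exons of ADAM10 and of APP each overlap an antisense or long non-coding gene in GENCODE as well.

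BACE2 (gene ID 25825; chr21:41168160-41282530), a relative of BACE1 that can cut APP within the amyloid-β segment, was the scarcest of the 9 genes per unit length. It was at 12.9, 10.9 and 11.2 CPM in vehicle and 15.8, 13.005 and 11.1 CPM with Aβ42, from 179 to 259 counts per library. The groups overlapped through Aβ42 replicate 3, and the log2 fold change was 0.19 ± 0.13 (adjusted p-value 0.407; 95% interval -7.12% to 40.0%). It ran from 0.05 without Aβ42 replicate 1 to 0.30 without Aβ42 replicate 3. In TPM, however, BACE2 was at 6.34, 5.43 and 5.64 in vehicle and 10.5, 7.0 and 7.17 with Aβ42, with no overlap. Its log2 fold change on log2(TPM + 1) values was 0.42 (adjusted p-value 0.152, limma). Of the 9 members 3, APLP1, BACE1 and BACE2, did not overlap in TPM, against 27.6% of all tested genes.

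The relation between the 2 scales also differed between libraries for BACE2. The tool that made the counts and TPM values is not certain from the sources used here, so what length each TPM value was divided by is not known. Dividing each deposited count by its TPM gives a length factor, expressed here relative to the median gene of the library. For BACE2 it was 1.48, 1.49 and 1.47 in the vehicle libraries and 1.08, 1.35 and 1.09 in the Aβ42 libraries. All 3 Aβ42 libraries were below the vehicle range, and Aβ42 replicate 2 lay nearest to it. The log2 difference between groups was -0.34, while the median gene differed by 0.0064 in either direction. Among 10860 genes with at least 100 counts in every library, 8 (0.0737%), BACE2 included, differed by as much.

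For the other 8 members the length factor varied by 2.29% or less over the 6 libraries. GENCODE lists 3 coding transcripts of BACE2, of 2824, 2993 and 8764 bases with coding parts of 1188, 1554 and 1404 bases. The deposited table gives 1 value per gene, and which BACE2 transcripts the reads came from was not tested. This comparison was made after the values were seen and carries no test.

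**Figure D3:**
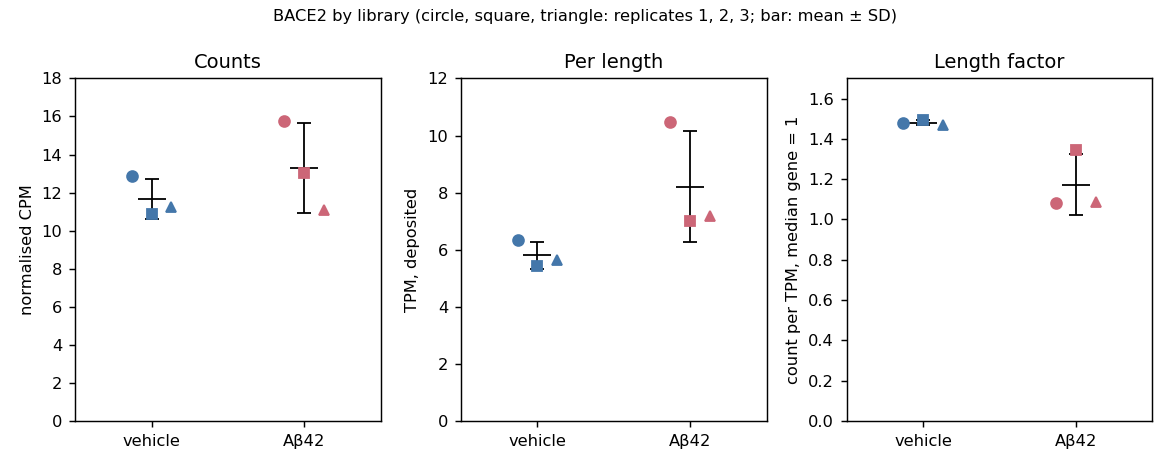
BACE2 in each library as normalised CPM, as deposited TPM and as the length factor (count per TPM, median gene of the library = 1), all axes from 0, bars mean ± SD of 3 libraries. CPM values overlap between groups, TPM values do not, and the length factor is 1.47 to 1.49 in vehicle and 1.08 to 1.35 with Aβ42.

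The 3 γ-secretase members all had negative values, with wide errors for PSEN2 and PSENEN, which had 121 to 201 counts per library. PSEN2 (gene ID 5664; chr1:226870616-226903668), one of the catalytic presenilins, was at 10.2, 11.9 and 12.1 CPM in vehicle and 7.80, 10.7 and 9.18 CPM with Aβ42. The groups overlapped because Aβ42 replicate 2 lay above vehicle replicate 1. Its log2 fold change was -0.30 ± 0.13, or 18.7% lower than vehicle on the fold scale, with an unadjusted p-value of 0.0471 and an adjusted p-value of 0.205 (edgeR). With the replicate block the adjusted p-value was 0.0835. Without Aβ42 replicate 2 the log2 fold change was -0.42 (adjusted p-value 0.0311), and without Aβ42 replicate 1 it was -0.19. Within each replicate number PSEN2 was lower with Aβ42, but the numbers are not established as pairs.

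NCSTN (gene ID 23385; chr1:160343383-160358949), the subunit that admits substrates, was at 65.0, 64.1 and 62.0 CPM in vehicle and 56.4, 63.7 and 64.1 CPM with Aβ42. Aβ42 replicate 1 lay apart below, and the other 5 libraries lay between 62.0 and 65.0 CPM. The log2 fold change was -0.05 ± 0.06 (adjusted p-value 0.626; 95% interval -12.4% to 6.04%) and changed sign, to 0.0058, without Aβ42 replicate 1.

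PSENEN (gene ID 55851; chr19:35745651-35747519), the small subunit needed for the complex to mature, was at 9.55, 12.2 and 8.35 CPM in vehicle and 7.37, 10.1 and 9.12 CPM with Aβ42. The groups overlapped widely, and replicate 2 was the highest library of each. The log2 fold change was -0.18 ± 0.16 (adjusted p-value 0.518; 95% interval -31.1% to 13.2%), and -0.01 without vehicle replicate 2. Summed TPM of 6 choroid plexus markers was likewise highest in replicate 2, at 3339, 7556 and 3960 in vehicle and 3639, 6650 and 2835 with Aβ42. Nearly all of that sum was TTR (3299, 7487 and 3925 TPM in vehicle). CLIC6, FOLR1 and KCNJ13 were also highest in replicate 2 of both groups, AQP1 with Aβ42 only and KL in vehicle only. The part of these markers in the PSENEN values was not tested. PSENEN is short (5.92% of tested genes were shorter), and the log2 fold change of short genes was higher (median 0.06 in the shortest 10%, -0.04 in the longest). With the length trend removed its log2 fold change was -0.22. Its exons overlap U2AF1L4 and other genes, mainly on the opposite strand, so its reads are uncertain.

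Of the remaining subunits, APH1A was at 58.4 CPM in Aβ42 replicate 1 and at 65.9 to 71.6 CPM in the other libraries. APH1B was at its highest in Aβ42 replicate 1 (41.7 CPM). APH1A had a log2 fold change of -0.04 ± 0.07 (adjusted p-value 0.733), positive (0.03) without Aβ42 replicate 1. The mean of APH1B was 39.1 ± 3.59 CPM for vehicle and 39.1 ± 2.37 CPM for Aβ42 (SD, n = 3 each).

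**Figure D4:**
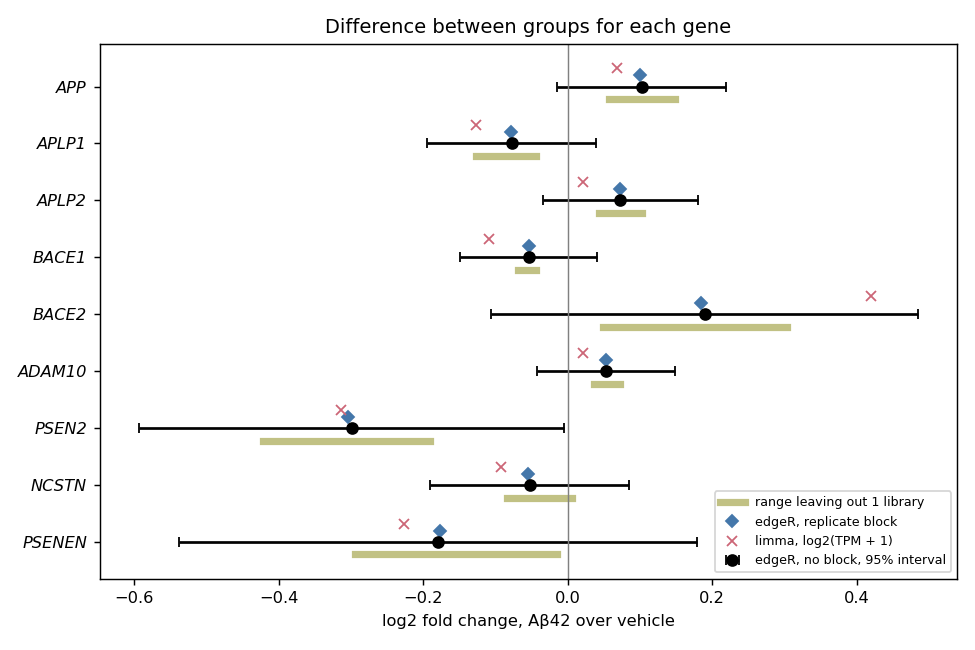
Log2 fold change of Aβ42 over vehicle (horizontal axis) for the 9 genes, with 95% intervals from edgeR, the value with the replicate block, the value on the log2(TPM + 1) scale and the range when 1 library is left out. The intervals include 0 except that of PSEN2, and the TPM value of BACE2 (0.42) lies farthest from its count-based value (0.19).

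Around these genes, 81 further genes in 6 lists cover proteins that bind, sort, regulate or are cut by the same machinery, and 80 had enough counts to test. GSAP, named as a γ-secretase activating protein, had 1 to 7 counts per library and was not tested. None of the 80 passed in edgeR, 10 higher and 9 lower had an unadjusted p-value under 0.05 (12.4% and 11.5% of all tested genes), and DESeq2 called 6. With the replicate block 6 were called higher and 6 lower, where 14.2% of all genes passed. The groups did not overlap for 7 higher and 11 lower, against 13.6% and 13.4% of all tested genes. The median log2 fold change of the 80 was -0.015, and of all tested genes 0.0032. These shares were near those of all genes, and nothing is read from them. The counts by list below stand beside the same 12.4% higher and 11.5% lower, and nothing is read from them either. In each list the 2 genes with the smallest p-values are given below. Their adjusted p-values are from edgeR, first without and then with the replicate block. The latter rests on pairing by number, which is not established.

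Among 11 α-secretase genes and regulators, 4 higher and 1 lower had an unadjusted p-value under 0.05. TSPAN15 and TSPAN33, which belong to the tetraspanins that carry ADAM10 to the cell surface and steer its choice of substrate, had the smallest p-values. TSPAN15 was at 2.52, 1.95 and 2.74 CPM in vehicle and 4.81, 3.44 and 5.16 CPM with Aβ42, with every Aβ42 library above every vehicle library. Its log2 fold change was 0.89 ± 0.22 (0.0734, and 0.00417 with the block). TSPAN33 went from 8.20 ± 0.453 to 10.6 ± 0.782 CPM (SD), a log2 fold change of 0.36 ± 0.11 (0.105 and 0.0485). TSPAN5 (-0.06) and TSPAN14 (-0.11), the most abundant of these tetraspanins, had negative values and TSPAN17 a positive one (0.14), none passing in either fit.

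Among 10 tested γ-secretase partners and related intramembrane proteases, 2 higher and 3 lower had an unadjusted p-value under 0.05. BSG, a membrane glycoprotein found with the complex, went from 232.1 ± 6.50 to 266.3 ± 20.7 CPM (0.20 ± 0.06, adjusted 0.0974 and 0.0187). SPPL2A, a presenilin-related protease, went from 60.7 ± 5.36 to 47.8 ± 6.42 CPM (-0.34 ± 0.10, adjusted 0.0979 and 0.0107).

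Proteins that bind APP (15 genes) included 2 with an unadjusted p-value under 0.05, both higher. NUMB, an adaptor for the NPXY tail, had a log2 fold change of 0.20 ± 0.06 (0.115 and 0.0275), and ITM2C, a membrane protein of the BRI family that binds APP, one of 0.15 ± 0.06 (0.151 and 0.0698). The tail-binding genes APBA1 (0.08), APBA2 (-0.04), APBB1 (0.05), APBB2 (-0.02) and DAB1 (-0.0070) did not pass in either fit. Sorting genes (15) included 1 higher and 1 lower. GGA2, a sorting adaptor, had 0.21 ± 0.09 (0.181 and 0.0244) and SORT1, the receptor sortilin, -0.11 ± 0.05 (0.209 and 0.162).

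Substrates were given as the proteins on which the same enzymes act. Of 12 BACE1 substrates 0 were higher and 2 lower at an unadjusted p-value under 0.05, against 12.4% and 11.5% of all tested genes. CHL1, an adhesion molecule cut by BACE1, was at 402.8, 454.6 and 392.7 CPM in vehicle and 293.6, 372.6 and 296.0 CPM with Aβ42, with no overlap (-0.38 ± 0.10, adjusted 0.0891 and 0.000268). CNTN2, an axonal contactin, was at 109.3, 103.3 and 104.4 CPM in vehicle and 50.3, 89.1 and 51.7 CPM with Aβ42 (-0.73 ± 0.24, 0.163 and 0.231). Aβ42 replicate 2 lay nearest to vehicle in both. Without it the adjusted p-value of CNTN2 was 1.1e-06 (edgeR), in a fit where 23.1% of all genes passed. Leaving out any other library gave CNTN2 adjusted p-values of 0.250 to 0.396.

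Of 17 ADAM10 and γ-secretase substrates 1 was higher and 2 lower at an unadjusted p-value under 0.05. CX3CL1, a chemokine shed by ADAM10, went from 23.7 ± 2.09 to 17.4 ± 2.51 CPM (-0.44 ± 0.11, 0.0737 and 0.00223). NOTCH1, a receptor cut by both enzymes, went from 145.1 ± 15.3 to 175.2 ± 17.8 CPM (0.27 ± 0.09, 0.128 and 0.00203). NOTCH2 (0.06), NOTCH3 (0.04), CDH2 (-0.09) and LRP1 (-0.04) did not pass in either fit.

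**Figure D5:**
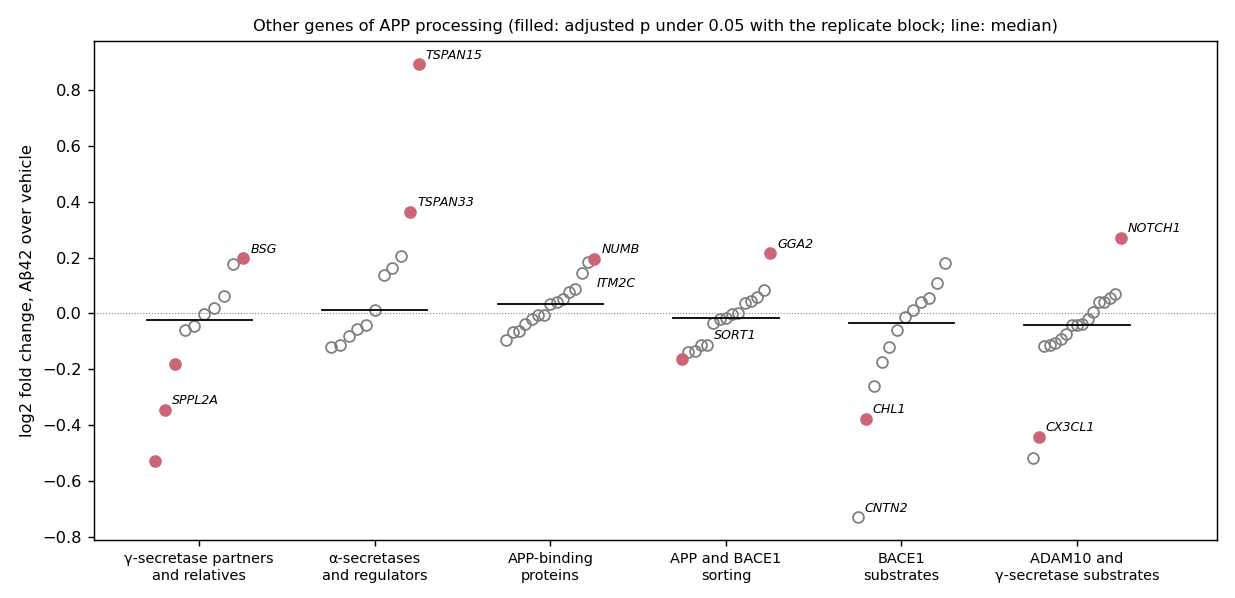
Log2 fold change of Aβ42 over vehicle (vertical axis) for the 80 tested genes in 6 lists (columns), with the list median as a line. Filled points are the 12 genes with an adjusted p-value under 0.05 in edgeR with the replicate block, an alternative fit. TSPAN15 (0.89) and CNTN2 (-0.73) lie farthest from 0.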

How the data were processed

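Per the labels, polyadenylated RNA was sequenced from stranded libraries, and the submitters' processing notes list FastQC, STAR 2.7.11b, featureCounts 2.0.6 and GRCh38. Their roles, options and the annotation are not given in the sources used here. Counts that are not whole, and counts per TPM that differ between libraries for some genes, leave it uncertain that featureCounts alone made the deposited values. The authors deposited 1 table with an estimated count per gene and library (86.9% to 87.5% of values are whole) and a TPM value, scaled by the authors for length and library total. Estimated counts were rounded, filtered (filterByExpr), scaled by TMM and tested with edgeR 4.0.16 in R 4.3.3 (robust quasi-likelihood, two-sided, no block), adjusted by Benjamini-Hochberg over 13842 genes. SE is the log2 fold change over the root of F; intervals are 95% and unadjusted. Alternatives used limma 3.58.1 and DESeq2 1.42.0.

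No duplicate libraries were found (chi-square per gene 3.16 to 21.2 over pairs of libraries). Same-numbered libraries deviated together from their group means (correlations 0.181, 0.388 and 0.129 over 12186 genes). Differently numbered libraries 1 and 3 correlated about as much (0.177 and 0.154). Those with replicate 2 correlated negatively, so only replicate 2 is set apart by its number. The numbers are therefore not established as pairs. Fits with the replicate block are alternatives to the main fit, and their p-values rest on that pairing. Counting error was 0.715% (APP) to 7.99% (PSENEN) of a library's count, and the biological coefficient of variation was 6.75%. Members and lists were chosen with earlier results of these data known. Named genes were the members, APH1A and APH1B, the 2 smallest p-values in each list, and the 3 genes most like APP, BACE1 and PSENEN over the libraries. Where other genes are named, they were chosen after their values were seen. Sequences came from GENCODE release 29 and coordinates from RefSeq (GRCh38.p14).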

Additional observations from a re-analysis of the deposited data

How the results depend on the processing

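Over 16 alternatives, the log2 fold changes of 8 of the 9 members kept their sign, and NCSTN reversed in 1 (0.0058 without Aβ42 replicate 1, range -0.085 to 0.0058 leaving out 1 library). No member passed under any alternative other than leaving out 1 library, where the count ran from 0 to 2, the latter without Aβ42 replicate 2. Over all genes the count of 0 became 360 with no filter on low counts, 809 with the DESeq2 Wald test, 2457 with quality weights, 1962 with the replicate block and 2024 with that block and a length trend, and it ran from 0 to 3224 leaving out 1 library. Over the 80 further genes it became 2, 6, 14, 12 and 10 in the same order, and 0 to 20. The causes were not tested. APH1A reversed to 0.032 without Aβ42 replicate 1 and was otherwise down to -0.113. APH1B, near 0, reversed to 0.012 under upper-quartile scaling, to 0.00045 with block and length trend, and in 4 of the 6 fits that left out 1 library, which ran from -0.077 to 0.045. MMP14 reversed to 0.0063 without vehicle replicate 2, its range reaching -0.187. The replicate block changed no call among the members. Counting error was largest for PSENEN (7.99%), PSEN2 (7.65%) and BACE2 (6.96%), beside coefficients of variation over vehicle libraries of 19.7%, 8.94% and 9.05%.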

Other observations

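The genes whose pattern over the 6 libraries was most like that of a member were found among 10281 tested genes with a mean of at least 10 CPM, by the root mean square difference of log2 CPM centred on each gene's mean. For APP they were MADD (0.011), GAMT (0.011) and CLSTN3 (0.012). Their log2 fold changes were 0.11, 0.11 and 0.10, beside 0.10 for APP, and none passed (adjusted p-values 0.216, 0.453 and 0.257, edgeR). For BACE1 they were ADSS2 (0.0070), ANAPC2 (0.0077) and SPDL1 (0.011), with log2 fold changes of -0.05, -0.06 and -0.04. For PSENEN, whose replicate 2 was the highest library in each group, they were ARMCX5-GPRASP2 (0.051), MMP14 (0.079) and CDO1 (0.081). The measure grows with a gene's own spread and counting error, so its size is not comparable between APP, BACE1 and PSENEN. With 6 libraries and this many genes, some close matches are found for most patterns, and the likeness is given as a description.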
